A study of Mus musculus with 17 samples.

Results

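Small leucine-rich proteoglycans are secreted matrix proteins with a core of leucine-rich repeats, most of which carry glycosaminoglycan chains. They bind fibrillar collagens and set the spacing and width of the fibrils, and several of them hold growth factors of the TGF-beta family in the matrix. Fibroblasts, tendon cells, chondrocytes and smooth muscle cells are their usual sources, and normal mammary epithelium makes little of them. The 8 family members described here were *Dcn* (decorin), *Bgn* (biglycan), *Aspn* (asporin), *Lum* (lumican), *Fmod* (fibromodulin), *Prelp*, *Omd* (osteomodulin) and *Ogn* (osteoglycin). They are 8 of the 55450 genes in the bulk table, and all 8 were also rows of the single-cell tables. The family was selected on measured values of these same libraries, so the members' levels and differences are given as a description without a test.

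The libraries came from cultured cell lines made from tumor-bearing organs of female FVB/NJ MMTV-PyMT mice of 10 to 12 weeks, in which a mammary promoter drives the polyoma middle T oncogene. Every group shared this transgene, about a month of culture that favored cancer cells over fibroblasts, and a sort for cells with high surface EpCAM. Bulk RNA-seq covered 14 libraries in 7 groups of 2: the mammary fat pad (MFP) primary tumor, whose labels give no CD44 status, and lines from the lung, the bone marrow (BM) and the lymph node (LN), each sorted as CD44low or CD44high. Per the study's methods the 2 libraries of a group were different clonal isolates from different mice, so each value is that of a clone as much as of an organ. Single-cell RNA-seq covered 1 library each of lung CD44low, lung CD44high and LN CD44high cells. The study's methods and its design text differ on the number of single-cell replicates, so whether a matrix holds more than a single clone is not known here. Bulk values are TPM (reads per transcript length, scaled to a fixed sum per library), a scale on which levels of different genes can be compared, and which keeps no record of read depth.

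The labels of the lung lines were checked against the markers of the sort. *Epcam*, the sorted epithelial adhesion gene, was listed at 0 TPM in both lung CD44low libraries and at 0.23 and 0.86 TPM in the lung CD44high libraries. It stood between 315 and 941 TPM in the other 10 libraries. Of 10 epithelial markers, 6 were listed at 0 in both lung CD44low libraries, and their summed level there was 1.74 to 2.42 TPM against 7390 to 8198 TPM in MFP. Of 10 fibroblast markers (*Col1a1*, *Thy1*, *Pdgfrb* and others), 9 reached 1 TPM in both lung CD44low libraries, while *Fap* was listed at 0. The 10 summed to 330 to 678 TPM there, 30.1 to 58.3 TPM in lung CD44high and 5.08 to 6.31 TPM in MFP. BM (29.8 to 41.7 TPM) and LN (18.97 to 42.8 TPM) overlapped with lung CD44high. *Col5a1* was no higher in lung CD44low (4.64 and 7.73 TPM) than in lung CD44high (9.99 to 16.8 TPM) or BM (4.91 to 13.9 TPM). The 7 smooth muscle markers summed to 758 to 824 TPM in lung CD44low, most of it *Acta2*, and to at most 8.86 TPM elsewhere. Only 4 of the 7 reached 1 TPM in both lung CD44low libraries. *Myh11* was at 0.14 and 0.15 TPM there. *Des* (0.21 and 0.26 TPM) was lower than in BM and LN (1.21 to 2.35 TPM), and *Notch3* (0.05 and 0.25 TPM) lower than in MFP (0.44 and 1.44 TPM). The 6 endothelial markers summed to at most 0.21 TPM in any library. The 6 macrophage markers summed to 45.8 to 49.3 TPM in lung CD44low and to 21.95 to 268 TPM elsewhere, with the defining marker *Adgre1* listed at 0 in all 14 libraries. The 6 cartilage and tendon markers summed to 17.3 to 21.7 TPM in lung CD44low, to 276 to 332 TPM in BM and to 54.0 to 323 TPM in LN. Whether the cell types behind these markers account for the proteoglycan levels was not tested. The expression profile of the lung libraries therefore went against an EpCAMhigh label, and they are called below by their labels only. *Cd44* RNA did not follow the sort either: it was 12.2 and 21.6 TPM in lung CD44low, 21.95 and 12.1 TPM in lung CD44high, and higher in LN CD44low (147 and 82.7 TPM) than in LN CD44high (49.0 and 52.3 TPM). In the single-cell libraries described below, *Cd44* was at 8.51 counts per 10000 in lung CD44low, 4.99 in lung CD44high and 4.49 in LN CD44high, so it was highest in the library labelled CD44low. Thinned to 500 counts per cell, 28.0%, 16.0% and 14.1% of cells held a count. Because bulk RNA pools cells, a smaller share of producing cells and less RNA per cell cannot be told apart in any value below.

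The family was concentrated in the lung CD44low lines. Summed over the 8 members, it made up 1.51% and 1.74% of all transcripts in these 2 libraries, at 15060 and 17358 TPM. The sum was 216 and 107 TPM in lung CD44high, 20.2 to 36.3 TPM in the 4 BM libraries, 5.90 to 15.3 TPM in the 4 LN libraries and 1.08 and 0.68 TPM in MFP. The lowest lung CD44low library thus exceeded the highest of the other 12 by 69.7 times. In 7 of the 8 members both lung CD44low libraries lay above all other 12 libraries, *Fmod* being the exception. The same held for 6 of the 6 members that reached 1 TPM in at least 2 libraries, and for 16.1% of all 15348 genes that passed this filter. As the members were chosen with these levels in view, nothing is read from that count.

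**Figure D1:**
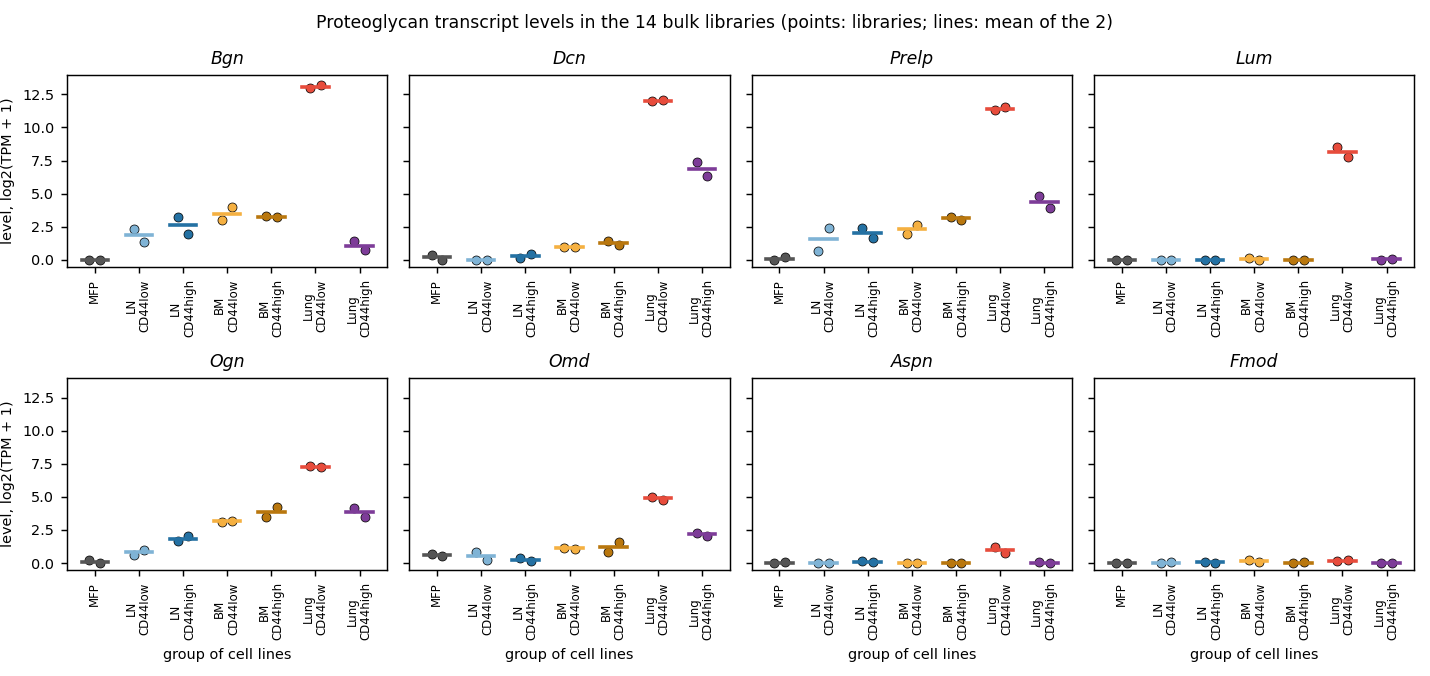
Transcript level of each member as log2(TPM + 1) on the vertical axis for the 7 groups on the horizontal axis; points are libraries and lines the mean of the 2. In every panel except that of *Fmod* both lung CD44low points stood above the other 12, and *Bgn*, *Dcn* and *Prelp* reached at least 2509 TPM there.

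Class I members bear chondroitin or dermatan sulfate chains, apart from *Aspn*, whose product has none. *Bgn*, which encodes biglycan with a pair of such chains, was at 7905 and 9601 TPM in lung CD44low. By mean TPM it was number 4 of the 55450 genes in this group. It was at 1.71 and 0.65 TPM in lung CD44high, at 7.10 and 14.7 TPM in BM CD44low, at 8.77 and 8.61 TPM in BM CD44high, at 3.99 and 1.60 TPM in LN CD44low, at 8.26 and 2.96 TPM in LN CD44high and listed at 0 in both MFP libraries. The lung CD44high lines thus had less *Bgn* than any BM library, although they came from the same organ as the lines with most. On the log2(TPM + 1) scale, lung CD44high minus lung CD44low was -12.01 (standard error 0.48). The lowest lung CD44low library exceeded the highest library of any other group by 539 times.

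*Dcn*, whose product decorin coats collagen fibrils and binds TGF-beta, had a different order of groups. It was at 4091 and 4315 TPM in lung CD44low, number 13 of all genes by mean level. Unlike *Bgn*, it was second highest in the lung CD44high libraries, at 166 and 78.9 TPM. In BM it was at 0.99 and 0.99 TPM (CD44low) and at 1.75 and 1.14 TPM (CD44high). In LN and MFP it reached at most 0.36 TPM. The 4 lung libraries therefore lay above all other 10, and the pair of lung groups did not overlap, with a CD44high minus CD44low difference of -5.18 on the log2(TPM + 1) scale (standard error 0.34). Lung CD44high lay 6.65 above MFP on this scale (standard error 0.34). Over the alternative settings this difference ran from 6.12 to 9.13, so its size rests on the processing. *Aspn*, encoding the aspartate-rich asporin, was at 1.33 and 0.70 TPM in lung CD44low and at most 0.09 TPM in the other 12 libraries. It did not pass the filter of 1 TPM in 2 libraries and has no fitted difference.

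Class II members carry keratan sulfate or, in the case of *Prelp*, a heparin-binding end in its place. *Prelp*, which anchors basement membranes to collagen, was at 2509 and 3049 TPM in lung CD44low, number 28 of all genes by mean level. It was at 27.4 and 14.1 TPM in lung CD44high, at 2.87 to 8.44 TPM in BM, at 0.59 to 4.44 TPM in LN and at 0 and 0.15 TPM in MFP. The 4 lung libraries stood above all others, and lung CD44high minus lung CD44low was -7.06 on the log2(TPM + 1) scale (standard error 0.56). *Lum*, needed for the ordered collagen of the cornea, was at 362 and 217 TPM in lung CD44low and at most 0.12 TPM in the other 12 libraries. It was listed at 0 in MFP and LN, so no fold is given for those groups. The lung CD44high lines (0 and 0.05 TPM) had none of the level seen there for *Dcn*.

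*Omd*, a bone matrix keratan sulfate proteoglycan, was at 31.3 and 26.6 TPM in lung CD44low and at 3.87 and 3.23 TPM in lung CD44high. It was at 0.82 to 2.02 TPM in BM, 0.10 to 0.77 TPM in LN and 0.61 and 0.48 TPM in MFP, where it was the leading member of a family that summed to about 1 TPM. Lung CD44high minus lung CD44low was -2.72 on the log2(TPM + 1) scale (standard error 0.30). *Fmod*, a tendon and cartilage member that guides collagen cross-linking, stood apart from the rest of the family. It was at 0.13 and 0.15 TPM in lung CD44low, at 0 in lung CD44high and at most 0.18 TPM in any library, the highest being a BM library.

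*Ogn* (class III, expressed in bone, vessel wall and other connective tissue) was the member with the flattest profile among those above 100 TPM in lung CD44low. It was at 160 and 148 TPM in lung CD44low, at 16.7 and 10.3 TPM in lung CD44high, at 7.68 and 8.05 TPM in BM CD44low and at 10.2 and 17.4 TPM in BM CD44high. The lung CD44high and BM CD44high libraries overlapped. In LN it was at 0.55 to 3.03 TPM and in MFP at 0.15 and 0 TPM. Both lung CD44low libraries were above the highest other library by at least 8.53 times, compared with 6.88 times for *Omd*, 24.6 times for *Dcn* and 91.5 times for *Prelp*.

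The members thus differed in the second highest group. *Dcn*, *Prelp* and *Omd* were next highest in lung CD44high, without overlap with the groups below. *Bgn* was next highest in BM, where all 4 libraries lay above both lung CD44high libraries but overlapped with LN CD44high. The make-up of the family changed with this. *Bgn* gave 52.5% and 55.3% of the family's TPM in lung CD44low and 0.79% and 0.61% in lung CD44high. *Dcn* gave 27.2% and 24.9% in lung CD44low and 77.0% and 73.6% in lung CD44high.

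All but one of the members lie in 3 chromosomal clusters, and the levels were uneven within each cluster (mm10, GENCODE vM21). On chromosome 10, *Dcn* (97479609-97518143, plus strand) is followed at 47.0 kb by *Lum* (97565128-97572703, plus strand) and then by the corneal and cartilage genes *Kera* and *Epyc*. *Dcn* and *Lum* were both high in lung CD44low, but *Kera* was at 0 and 0.03 TPM and *Epyc* at 0 in both of these libraries. On chromosome 1, *Prelp* (133910304-133921414, minus strand) lies 2.30 kb from *Optc* and 116 kb from *Fmod* (134037254-134048277, plus strand), with no other coding gene between them. *Prelp* was at 2509 and 3049 TPM in lung CD44low, whereas *Optc* was at 0.96 and 0.35 TPM and *Fmod* at 0.13 and 0.15 TPM.

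On chromosome 13 the order is *Ecm2*, *Aspn* (49544443-49567565), *Omd* (49582462-49592822) and *Ogn* (49608046-49624501), all on the plus strand and 11.7 to 15.2 kb apart. The level in lung CD44low rose along this order. *Ecm2* was at 0.37 and 0.44 TPM and *Aspn* at 1.33 and 0.70 TPM, followed by *Omd* and then *Ogn*. *Bgn* is alone on chromosome X (73483602-73495933, plus strand). Whether libraries keep strand is not given in the sources used here, so overlapping genes matter. The minus-strand gene *Cenpp* (49464023-49652785), a centromere gene, spans all 4 genes of the chromosome 13 cluster. None of the exons of *Ogn* or *Omd* overlaps an exon of *Cenpp*, while 1 of the 11 annotated exons of *Aspn* does. *Cenpp* was at 0.67 and 0.71 TPM in lung CD44low, where the cluster was highest, and at 16.5 to 27.1 TPM in BM. In LN it was at 3.21 to 15.3 TPM, so BM lay above LN, as it did for *Ogn* and *Omd*. Whether reads of *Cenpp* add to these genes was not tested. *Prelp* overlaps the antisense gene *Gm15851*.

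**Figure D2:**
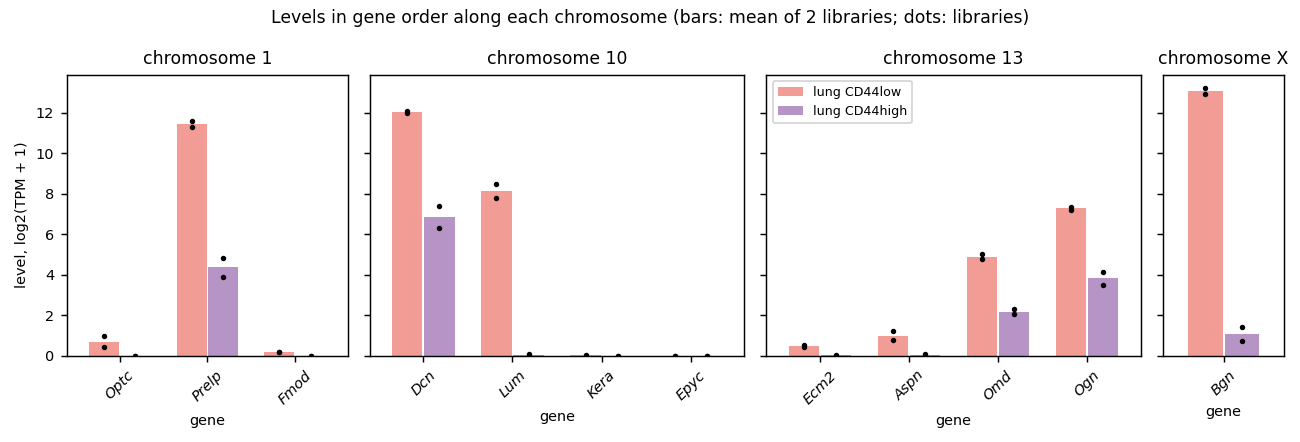
Level as log2(TPM + 1) on the vertical axis of the family genes in their order along chromosomes 1, 10, 13 and X; bars are the mean of 2 libraries and dots the libraries. Neighbors differed widely: *Prelp* stood between *Optc* and *Fmod*, both under 1 TPM, and *Dcn* and *Lum* beside *Kera* and *Epyc* at 0 or nearly so.

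Promoter sequences of 6 of the members were matched in RefSeq (GRCm38.p6), and those of *Dcn* and *Lum* were not. The 250 bases before the start site are printed 5′ to 3′ for *Bgn* and *Prelp*, which were high in lung CD44low, for *Ogn*, which was intermediate, and for *Fmod*, the cluster neighbor of *Prelp* that was not detected above 0.18 TPM. Capitals mark matches on either strand to the TATA box TATAAA, the Sp1 type GC box GGGCGG, the TEAD type GGAATG, the AP-1 motif TGACTCA and the E-box CAGGTG. The windows are chrX:73483351-73483600 (plus strand) for *Bgn*, chr1:133921402-133921651 (minus strand) for *Prelp*, chr13:49607765-49608014 (plus strand) for *Ogn* and chr1:134037004-134037253 (plus strand) for *Fmod*.
Bgn: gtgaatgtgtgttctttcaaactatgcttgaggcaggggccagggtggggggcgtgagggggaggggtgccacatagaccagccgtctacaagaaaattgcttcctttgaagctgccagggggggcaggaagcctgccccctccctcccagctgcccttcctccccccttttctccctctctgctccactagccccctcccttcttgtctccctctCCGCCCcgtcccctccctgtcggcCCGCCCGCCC
Prelp: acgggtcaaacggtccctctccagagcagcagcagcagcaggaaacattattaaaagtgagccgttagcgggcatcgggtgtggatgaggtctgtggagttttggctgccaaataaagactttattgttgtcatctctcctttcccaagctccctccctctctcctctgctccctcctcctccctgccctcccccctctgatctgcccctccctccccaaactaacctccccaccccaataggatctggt
Ogn: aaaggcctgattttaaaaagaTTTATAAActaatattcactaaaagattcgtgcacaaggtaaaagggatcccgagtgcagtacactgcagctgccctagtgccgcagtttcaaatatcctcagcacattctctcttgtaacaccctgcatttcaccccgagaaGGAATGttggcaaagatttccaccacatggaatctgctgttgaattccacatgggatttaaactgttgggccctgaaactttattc
Fmod: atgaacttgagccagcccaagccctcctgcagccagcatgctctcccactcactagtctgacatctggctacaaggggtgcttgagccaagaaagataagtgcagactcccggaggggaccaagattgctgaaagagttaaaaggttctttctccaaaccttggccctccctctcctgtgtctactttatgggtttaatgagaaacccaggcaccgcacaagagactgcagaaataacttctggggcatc
The *Bgn* window held 3 GC boxes, which begin 34, 10 and 6 bases before the start, and the last of these overlap. Of all 32851 promoter windows of the same length, 32.7% held this motif. The *Ogn* window held a TATA box match on each strand, 229 and 227 bases before the start and overlapping, and a TEAD type match 86 bases before it. These motifs were in 12.4% and 12.6% of all windows. No searched motif was in the windows of *Prelp* or *Fmod*, the AP-1 motif was in 4.46% and the E-box in 17.2% of all windows, and neither was in a member's window. The windows were unlike in base composition too, with 64.4% G and C in *Bgn*, 55.6% in *Prelp*, 51.2% in *Fmod*, 42% in *Ogn*, 38.4% in *Omd* and 30% in *Aspn*, beside a median of 52.4% over all windows.

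The genes that build, bind, sense and cut these proteoglycans were then compared between groups. For these partner lists, none of which holds a member, a gene was called when its log2(TPM + 1) difference was over 2 and limma's p, adjusted by the Benjamini-Hochberg method across the 15348 genes tested, was under 0.05. Of 80 listed partner genes 64 were tested. The filter admitted *Podn*, *Podnl1*, *Papss2*, *Col1a2*, *Col5a2* and *Tll1* through lung CD44low alone. Of the 64, 31 rose and 2 fell in lung CD44low against MFP. Among all genes tested, 11.2% rose and 7.62% fell in this comparison. In lung CD44high against MFP, 11 rose and 4 fell (all genes: 5.42% and 8.03%). Between the lung groups, 3 were higher and 24 lower in CD44high (all genes: 2.49% and 8.8%). Without the second lung CD44low library this count of 27 was 17, with 58 partner genes tested. These 3 comparisons share libraries, so their counts are not independent of each other. The lists were also chosen with earlier results of these data known. The counts of partner genes, here and below, are therefore a description, and nothing is read from their excess over all genes. The shares of all genes given here also stand beside the counts of each list in the same comparison.

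**Figure D3:**
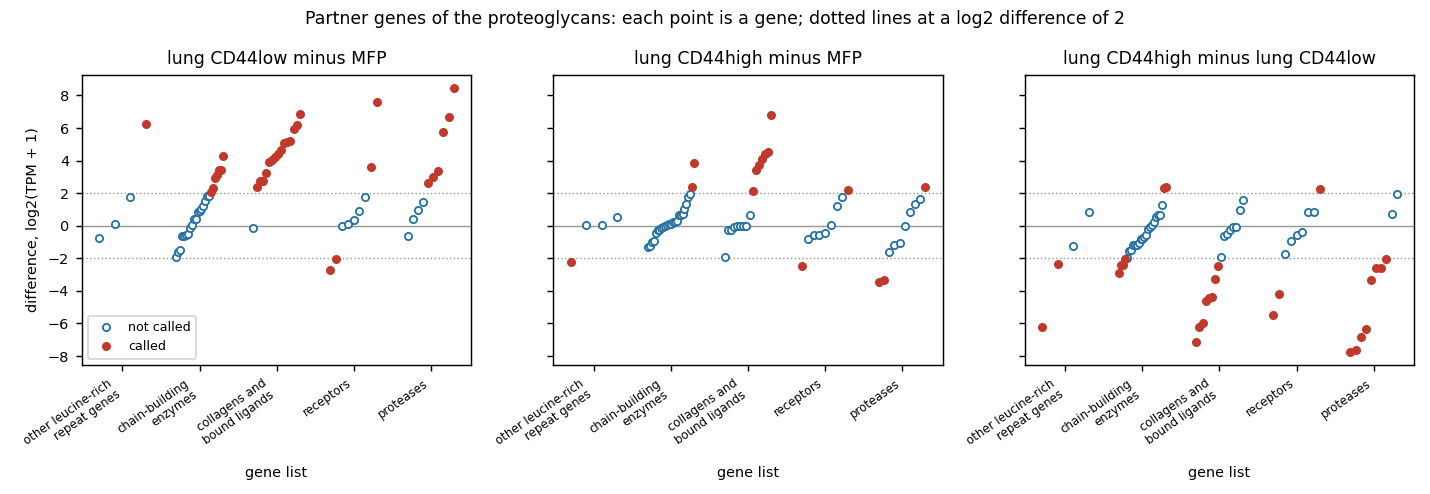
Difference in log2(TPM + 1) on the vertical axis of each tested partner gene (points), by list on the horizontal axis, for lung CD44low minus MFP, lung CD44high minus MFP and lung CD44high minus lung CD44low; filled points were called and dotted lines mark a difference of 2. Of 16 collagens and bound ligands, 15 are filled and positive in the first panel, and 8 of 10 proteases are filled and negative in the last.

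The glycosaminoglycan chains are begun on the core protein, polymerized, epimerized and sulfated by a set of Golgi enzymes. Of 25 such genes tested, 7 were called as higher and none as lower in lung CD44low against MFP. Among all genes 11.2% rose and 7.62% fell. The median log2 difference of the 25 was 0.90, beside 0 over all genes. Some genes had a limma adjusted p under 0.05 but a difference under 2. Of these, *Chst7* (-1.89), *Slc26a2* (-1.62) and *Papss1* (-1.49) were lower. *Chst12* (1.84), *Ust* (1.80), *Chst1* (1.53) and *Ugdh* (1.03) were higher. *Chst14*, the sulfotransferase of dermatan sulfate, was at 73.9 and 69.3 TPM in lung CD44low and 2.14 to 3.52 TPM in MFP, and rose by 4.27 on the log2 scale (standard error 0.54, limma adjusted p = 0.000152). *Fam20b*, a kinase that phosphorylates the xylose of the linker, rose from 10.7 to 10.8 TPM in MFP to 113 to 143 TPM (log2 difference 3.45, adjusted p = 0.00229 in limma). *Dse*, the epimerase that turns chondroitin into dermatan sulfate, rose by 3.398 (adjusted p = 8.85e-05 in limma) and the polymerizing factor *Chpf2* by 3.12 (adjusted p = 0.000786). *Xylt2*, which adds the first sugar, was at 7.83 to 9.60 TPM in lung CD44low and at 1.83 to 4.92 TPM in MFP and was not called, and its relative *Xylt1* was at most 0.37 TPM in any library.

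In lung CD44high against MFP, 2 of the 25 enzyme genes rose and none fell, where 5.42% of all genes rose and 8.03% fell. Rises were fewer than in lung CD44low over all genes too (11.2% there). Here *Dse* (log2 difference from MFP 2.36, limma adjusted p = 0.00131) and the keratan sulfotransferase *Chst1* (3.88, adjusted p = 0.000147) rose, and the list's median was 0.10. *Chst1* was at 10.5 to 19.4 TPM in lung CD44high and at 1.45 to 2.73 TPM in lung CD44low, so it ran opposite to the members. The sulfate transporter *Slc26a2* was also higher in lung CD44high than in lung CD44low, by 2.35 (limma adjusted p = 0.00107). In this contrast 4 genes were lower in CD44high, where 8.8% of all genes were lower. They were *Chst14* (-2.91), *Fam20b* (-2.44), *Papss2* (-2.39) and *Ugdh* (-2.03). *Papss2* makes the sulfate donor and *Ugdh* the sugar nucleotide of the chains. The more abundant *Papss1*, a relative of *Papss2*, ran the other way without a call (0.55). It was at 19.1 and 23.2 TPM in lung CD44low and at 30.4 and 32.0 TPM in lung CD44high. Of the 4 lower genes, *Chst14* alone was still called without the second lung CD44low library. The call of *Ugdh* was lost without that library or the second lung CD44high library, and that of *Chst1* without the first lung CD44high library. The call of *Fam20b* between the lung groups was lost without any one of the 4 lung libraries, and *Papss2* (3.34 and 5.32 TPM in lung CD44low, at most 0.18 TPM elsewhere) was no longer tested without either lung CD44low library.

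The collagens and growth factors that the proteoglycans bind had the largest share called of the 5 lists in lung CD44low against MFP. Of 19 genes listed 16 were tested, since *Col14a1*, *Eln* and *Tnxb* were at most 0.34 TPM in any library. In lung CD44low 15 of the 16 rose against MFP, with a median log2 difference of 4.30 over those tested. Of the 16, 4 (*Col1a1*, *Col1a2*, *Col3a1* and *Col5a1*) are also among the fibroblast markers above. *Col1a1*, the main fibril collagen, was at 83.3 and 257 TPM there and at 0 to 0.58 TPM in MFP, a rise of 6.87 (standard error 0.54, limma adjusted p = 4.83e-06). *Col5a2* rose by 6.18 (limma adjusted p = 2.00e-08), *Col1a2* by 5.95 (adjusted p = 1.47e-07) and *Tgfb3* by 5.197 (adjusted p = 2.59e-07). Without either lung CD44low library *Col5a2* and *Col1a2* were no longer tested, since 1 library alone then reached 1 TPM. In lung CD44high 7 of the 16 rose. *Tgfb3*, a growth factor of the TGF-beta family, was at 125 to 142 TPM there and at 39.98 to 46.7 TPM in lung CD44low, a rise of 6.80 over MFP in lung CD44high (adjusted p = 1.27e-07, limma). *Fn1* (4.55), *Col6a1* (4.38) and *Col12a1* (4.09) also rose, but *Col1a1* was at 0.02 and 0.08 TPM and *Col1a2* and *Col5a2* were listed at 0. Thus in lung CD44high the *Dcn* transcript was present in lines with almost no type I collagen RNA.

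Of 9 receptor genes tested, *Lrp1* and *P2rx7* rose in lung CD44low against MFP and *Cd14* and *Tlr2* fell. *Lrp1*, an endocytic receptor that takes up decorin, was at 229 and 437 TPM in lung CD44low and at 0.33 to 0.95 TPM in MFP (log2 difference 7.62, limma adjusted p = 1.99e-05). *Tlr2*, which senses free biglycan, was at 7.34 to 7.51 TPM and 32.3 to 34.96 TPM in these groups (log2 difference -2.04, limma adjusted p = 7.37e-05), a call lost without the second MFP library and after median ratio scaling. The rise of *Lrp1* in lung CD44high was called in only 7 of 14 repeats of the fit, each with another library missing. This call was also lost with the replicate number as a block and with no filter on low TPM.

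The proteases that cut or process these proteins formed the list with the largest share called between the lung groups. Of 10 genes, 6 rose in lung CD44low against MFP, and 8 were lower in lung CD44high than in lung CD44low. *Mmp2* was at 340 and 369 TPM in lung CD44low, at 0.47 and 1.27 TPM in lung CD44high and listed at 0 in MFP, and lung CD44high minus CD44low was -7.60 (limma adjusted p = 2.40e-08). *Pcolce*, the enhancer of procollagen processing, was at 505 and 506 TPM in lung CD44low and 1 and 1.84 TPM in lung CD44high, a difference of -7.73 (limma adjusted p = 1.50e-08). *Mmp14* fell below MFP in lung CD44high (listed at 0 there, 9.04 to 10.8 TPM in MFP) while it rose above MFP in lung CD44low (107 to 118 TPM). *Adamts5*, an aggrecanase, was the list's one gene that rose in both lung groups, by 5.73 in CD44low (adjusted p = 2.31e-07, limma) and 2.37 in CD44high (adjusted p = 0.000199).

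Of the other genes of the family, 4 of 10 were tested. *Podn* (podocan) rose in lung CD44low, at 68.5 to 82.8 TPM against 0 in MFP (limma adjusted p = 1.28e-08), and was at most 0.57 TPM in the other groups. Without either lung CD44low library it was no longer tested. *Tsku* fell in lung CD44high, at 1.53 to 2.98 TPM against 11.8 to 16.5 TPM in MFP (log2 difference -2.24, limma adjusted p = 0.0114), a call lost without the first lung CD44high or the first MFP library. The 6 untested genes were *Ecm2*, *Kera*, *Epyc*, *Optc*, *Nyx* and *Chad*.

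The LN and BM lines carried low but measurable levels of some members. Relative to MFP and averaged over the 4 LN and BM groups, *Ogn* was higher by 2.31 (standard error 0.26) and *Prelp* by 2.15 (standard error 0.44) on the log2(TPM + 1) scale, and *Bgn*, listed at 0 in MFP, was at 1.60 to 14.7 TPM. *Dcn* differed by 0.44 (standard error 0.27), *Omd* by 0.15 and *Lum* by 0.02, with no level above 2.02 TPM in any of the 3. BM and LN did not overlap for *Ogn*, *Dcn* and *Omd*, with BM higher, as for 4.13% of all genes tested. With a pseudocount of 0.1 in place of 1, the differences from MFP were 4.64 for *Ogn*, 4.52 for *Prelp* and 1.22 for *Dcn*, so their size rests on the pseudocount. *Dcn*, *Ogn*, *Prelp* and *Aspn* were lower in CD44high than in CD44low in lung and higher in BM or LN, without overlap. They include 3 of the 6 members tested, *Aspn* being outside the filter. Of all genes tested, 5.91% did so, and 19.9% had opposite directions either way round. As high levels in lung CD44low chose the members, nothing is read from the count. Of the partner genes, 9 rose and 1 fell against MFP, where 2.83% of all genes rose and 3.1% fell. With a pseudocount of 0.1, 19 partner genes were called, and 1967 rather than 911 of all genes. After median ratio scaling 537 of 879 calls over all genes were rises, compared with 435 of 911. The gene that fell was *Col12a1*, a call lost without the first MFP, the first BM CD44high or the second LN CD44low library and after median ratio scaling. *Col2a1*, the cartilage collagen, rose most, at 223 to 287 TPM in BM and 49.7 to 300 TPM in LN against 0.02 to 0.38 TPM in MFP (limma adjusted p = 6.35e-09). *Col6a1* (5.28), *Col6a2* (4.61), *Col11a1* (4.49), *Pcolce* (2.64) and *Lrp1* (2.44) rose too, the last of these with a call lost without either MFP library. *Lum* and *Fmod*, which bind the same fibrils, were at most 0.18 TPM in these lines. In this contrast the median of all genes was -0.21, and 0.09 after scaling by median ratios, so small differences rest on the scaling.

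Averaged over the lung groups and set against the 4 LN and BM groups, 18 partner genes were higher and 4 lower (all genes: 7.13% and 5.54%). *Col12a1* (6.23), *Adamts5* (4.38), *Fn1* (3.46), *Chst14* (2.99), *Chpf2* (2.95), *Chpf* (2.89), *Egfr* (2.89) and *Col3a1* (2.87) were higher in lung. *Egfr* encodes a receptor that decorin can bind. *Col2a1* (-7.42) and *Adamts4* (-2.16) were lower in lung. For the members this average joins unlike groups: *Bgn* was above every LN and BM library in lung CD44low and below every BM library in lung CD44high. Some of the 18 partner genes were likewise higher through lung CD44low alone. In lung CD44high *Col1a2* and *Col5a2* were listed at 0, *Podn* was at 0 and 0.04 TPM and *Col1a1* at 0.02 and 0.08 TPM. *Mmp2* was at 0.47 and 1.27 TPM there, against 0.18 to 1.29 TPM in LN and BM.

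The genes with the profile most like each member over the 7 group means were found by the root mean square difference of mean-centered log2(TPM + 1) values. For *Dcn* these were *Cxcl12* (0.84), *Bmp4* (0.98) and *Fhl1* (0.98), in a profile that spanned 12.04. For *Bgn* they were *Ccdc80* (1.13), *Fbln5* (1.17) and *Igfbp7* (1.18), each under 1 TPM in lung CD44high. For *Prelp* they were *Aldh1a1* (0.86), *Igfbp4* (0.96) and *Ccdc80* (0.99). *Lum* had the closest neighbors, *Alkal1* (0.04), *Serpinb6b* (0.07) and *Fstl1* (0.11), all of them near 0 outside lung CD44low. *Omd* was nearest to *Slc41a2* (0.25), *Chst14* (0.28) and *Fgf2* (0.31). *Ogn* was nearest to *Snord100* (0.56), *Lmcd1* (0.64) and *Rbpms* (0.67), of which *Snord100*, a small nucleolar RNA, ran from 68.6 to 228 TPM in lung CD44low and from 0 to 162 TPM in lung CD44high. *Ccdc80* was the one gene named for a pair of members.

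The single-cell libraries gave the members per cell, with 1 library a label and so without a test. Cells with more than 250 genes and under 10% mitochondrial counts were kept, which left 348 of 2808 barcodes for lung CD44low, 1236 of 3623 for lung CD44high and 2562 of 3297 for LN CD44high. Median depth was 4011, 557 and 585 counts per cell. The headers number the cells and hold no barcode sequence, and no kept cell had the same counts in a pair of libraries. Levels are counts per 10000 over all kept cells with an exact Poisson 95% interval, and shares of cells have exact binomial 95% intervals, both of which cover counting error only.

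*Bgn* was at 11.6 per 10000 (11.2 to 12.1) in lung CD44low, from 2583 counts. It had 1 count in lung CD44high and 3 counts in LN CD44high. It was found in 211 of 348 lung CD44low cells (60.6%, 55.3 to 65.8), and 1 of 1236 and 3 of 2562 cells in the other libraries. Thinned to 500 counts per cell, which left out 34, 288 and 659 cells, the share was 33.1% (27.9 to 38.6) in lung CD44low, with 0 of 948 lung CD44high cells and 1 of 1903 LN CD44high cells. *Bgn* was therefore high in lung CD44low alone among the 3 libraries, as among the bulk groups.

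*Prelp* followed at 6.17 per 10000 (5.85 to 6.51) in lung CD44low, in 158 cells (45.4%, 40.1 to 50.8). In lung CD44high it was at 0.59 (0.49 to 0.70), from 130 counts in 54 cells, and no cell held more than 7 of them. In LN CD44high it was at 0.0076 (0.0021 to 0.019). The order of the levels was that of the bulk groups. With 1 library a label, counting intervals test no difference between labels. Thinned, 16.6% of lung CD44low cells and 1.48% of lung CD44high cells held a count. The lung CD44high cells with *Prelp* had a median depth of 8559 counts against 553 for those without, so the unthinned share of 4.37% followed depth, and 43 of the 54 were among the 222 cells with at least 1000 counts.

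*Ogn* was at 0.15 per 10000 (0.11 to 0.21) in lung CD44low, with 34 counts in 18 cells, at 0.021 (0.010 to 0.037) in LN CD44high and at 1 count in lung CD44high. *Omd* had 3, 5 and 10 counts in lung CD44low, lung CD44high and LN CD44high, and its intervals overlapped, unlike the bulk order. *Aspn* had 4, 1 and 1 counts, and *Fmod* 0, 0 and 1. For comparison, 27 marker genes were under 0.5 TPM in both bulk lung CD44low libraries, and 21 of them had 0 counts in the lung CD44low cells, but *Myh11* had 56, *Csf1r* 51 and *Cldn3* 44. In lung CD44high 26 of 30 such genes had 0 counts and *Csf1r* had most, with 29. In LN CD44high 17 of 21 had 0 and *Csf1r* had 78. Counts of *Ogn*, *Omd*, *Aspn* and *Fmod* were thus within the range of genes nearly absent from bulk, though above most of them where they were over 1, and free RNA and expression in a few cells cannot be told apart at this depth.

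**Figure D4:**
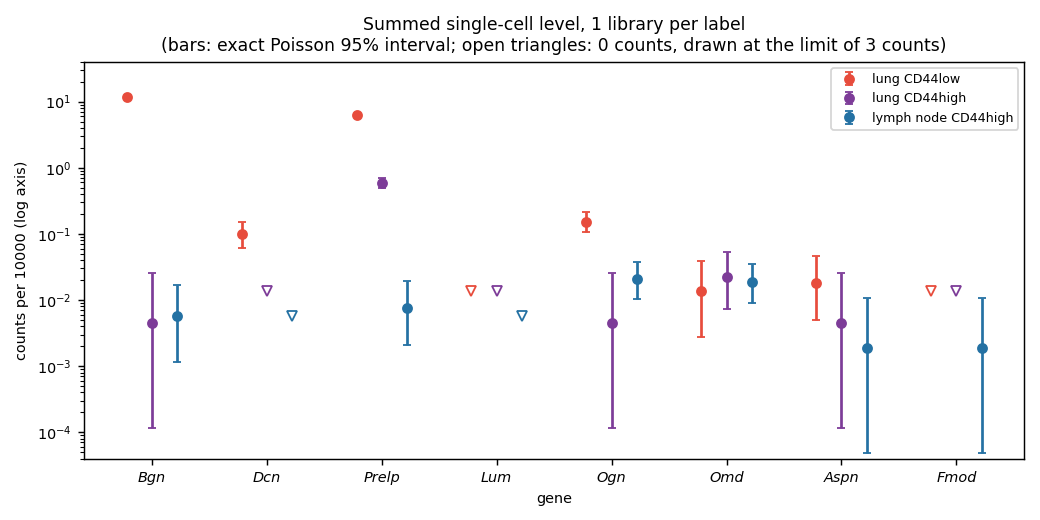
Counts per 10000 (vertical log axis) of the 8 members in the 3 single-cell libraries; bars are exact Poisson 95% intervals and open triangles mark 0 counts at the level that 3 counts would give. *Bgn* and *Prelp* stood at 11.6 and 6.17 in lung CD44low, and *Dcn* and *Lum* were low or absent there.

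*Dcn* and *Lum* were where the assays parted. *Dcn*, at 4091 and 4315 TPM in bulk lung CD44low, had 22 counts in 13 of the 348 cells, or 0.099 per 10000 (0.062 to 0.15). This was above most of the marker genes nearly absent from bulk, and below *Myh11*, *Csf1r*, *Cldn3* and *Krt8* (30 counts). Among 35 other nuclear genes with a mean bulk level within 2-fold of that of *Dcn*, none was lower in the cells, and their median was 9.37 per 10000. *Lum*, at 362 and 217 TPM in bulk, had 0 counts in 348 cells. Taken as a limit of 3 counts, this allows up to 0.0135 per 10000 and a count in up to 0.862% of cells, which is no limit on the cells that express the gene. Of 853 other genes within 2-fold of its bulk level, 1 was also at 0. *Ogn* and *Omd* were also toward the low end, the first above 76 of 1436 genes and the second, with 3 counts, above 76 of 3497 genes whose median was 0.36 per 10000. *Prelp* and *Bgn* were not, with more counts than 36 of 77 and 2 of 6 genes of like bulk level. In lung CD44high, *Dcn* was at 166 and 78.9 TPM in bulk and had 0 counts, as did 1 of 1486 genes of like bulk level. *Ogn* had 1 count there and was above 49 of 3617 genes, all of them at 0, while *Prelp* exceeded 2650 of 3476.

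The assays differed in read position (full-length in bulk, the 3′ end in cells) and in quantifier, which cannot be told apart here. The study describes its single-cell work as done on a subset of the metastatic samples. Which clones these were is not given in the sources used here. Within the lung CD44low cells, *Dcn* stayed under 1 per 10000 at every depth, with 0.60 in the 110 cells under 1000 counts and 0.078 in the 154 cells with at least 6000 counts. *Bgn* was at 7.64, 6.80, 6.70 and 12.4 per 10000 over cells of under 1000, 1000 to 3000, 3000 to 6000 and at least 6000 counts, so its level was present at every depth.

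**Figure D5:**
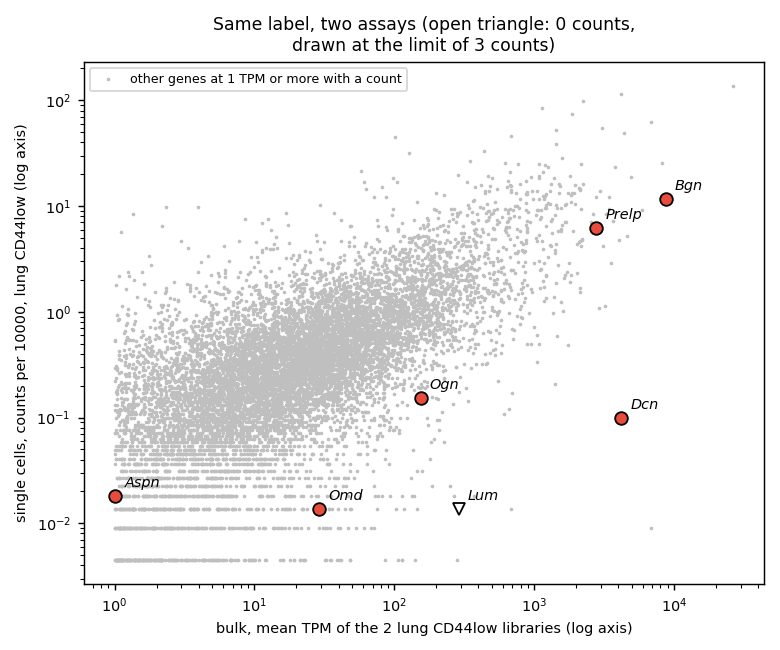
Single-cell level (counts per 10000, vertical log axis) against mean bulk level (TPM, horizontal log axis) in lung CD44low; gray points are genes at 1 TPM or more with a count, red points members and the open triangle *Lum* at 0 counts. *Bgn* and *Prelp* lay within the cloud, whereas *Dcn* at 0.099 and *Lum* at 0 lay far below it.

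In the 186 lung CD44low cells with at least 3000 counts, detection of *Bgn* and *Prelp* was counted jointly. A count of *Bgn* was seen in 152 of these cells and one of *Prelp* in 135. Both were seen in 130 cells, *Bgn* alone in 22, *Prelp* alone in 5 and neither in 29. Joint detection went with depth, at 13 of 32 cells of 3000 to 6000 counts and 117 of 154 cells with at least 6000, and no association of the genes is read from it. *Bgn* ranged from 0 to 39.8 per 10000 across these cells with a median of 11.04 and quartiles of 4.34 and 16.7. *Prelp* ranged from 0 to 48.7 with a median of 3.89. A cell without a count may still hold the transcript, so these shares are no count of cells that lack it.

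Marker genes in the same cells are given by *Bgn* count. *Acta2*, smooth muscle actin, was at 52.0 per 10000 in the 152 cells with *Bgn* and at 3.31 in the 34 without, and *Col1a1* at 4.62 and 0.79. *Vim*, the intermediate filament of mesenchymal cells, ran the other way, at 19.7 and 28.8, and was found in 150 of 152 and 33 of 34 cells. *Krt18*, an epithelial keratin, was at 0.28 and 2.03, and found in 11 of 152 and 20 of 34 cells. *Cd44* was at 7.91 and 13.6. *Epcam* had no count in either set. Median depth was 11497 and 8342 counts. The library labelled lung CD44low thus held cells of more than a single profile, and *Acta2* and *Col1a1*, but not *Vim*, were higher in the cells with *Bgn*. The part that cell make-up plays in the bulk levels was not tested.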

How the data were processed

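RNA from 14 bulk libraries was made into cDNA with a modified SMART-seq2 protocol by the authors, aligned to mm10 with STAR and quantified with RSEM on GENCODE v21. The authors deposited gene values as TPM, which sum to 1000000 in every library and keep no read depth, so no count test was run. Single cells were captured on the ddSeq platform (3′ chemistry) and quantified with kallisto, and the authors deposited whole-number counts per gene and cell. mm10, STAR, RSEM and kallisto are also named in the submitters' processing notes, and their versions are not given in the sources used here. All per-sample columns mapped to labelled samples.

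The members and lists were chosen with earlier results of these data known. Bulk values were fitted with limma 3.58.1 (R 4.3.3) on log2(TPM + 1), with trend, over all 14 libraries and 7 group means, for the 15348 genes that reached 1 TPM in 2 or more libraries. This fit has 7 residual degrees of freedom. A call needs an adjusted p (Benjamini-Hochberg) under 0.05 together with an absolute log2 difference over 2. Standard errors of members come from the same fit. The deposited values are TPM, so the exact test on counts named in the study's methods was not used. Named genes were the members, the 3 nearest profiles of each tested member, up to 4 called genes per partner list and comparison with the largest difference and no overlap of libraries, the sort genes and the cell markers. Other genes of the chromosomal clusters, *Cenpp* and the untested family genes were named after their values were seen or to complete a list. So were partner genes outside this rule, such as *Xylt1*, *Xylt2*, *Slc26a2* and *Papss1*.

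Single-cell counts were filtered (over 250 genes, under 10% of counts from 13 mt- genes), summed, and thinned to 500 counts per cell for shares. No doublet caller was run; the 5% of cells with the most counts were left out as an alternative. A count of 0 was given the limit of 3 counts. The scripts were tested on simulated data. Alternatives covered the pseudocount, filter, scaling, replicate block, groups fitted, each library left out, and 6 choices for cells.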

Additional observations from a re-analysis of the deposited data

Results flagged for a closer look

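The difference between CD44high and CD44low lines ran one way in lung and the other way in another organ for 4 members, with no overlap of the libraries on either side; the difference between organs was not tested. Of all 15348 genes tested, 19.9% had such opposite directions without overlap, and 5.91% were, as these members, lower in lung and higher in another organ, beside 3 of the 6 members tested. As high levels in lung CD44low chose the members, nothing is read from this count. For *Dcn*, CD44high minus CD44low was -5.18 on the log2(TPM + 1) scale in lung, 0.29 in BM and 0.30 in LN, the last at levels of 0 to 0.36 TPM. For *Ogn* it was -3.46 in lung, 0.69 in BM and 1.01 in LN, with 7.68 and 8.05 TPM in CD44low and 10.2 and 17.4 TPM in CD44high of BM, and 0.55 and 1.03 against 2.15 and 3.03 TPM in LN. For *Prelp* it was -7.06 in lung and 0.81 in BM, where the CD44high libraries were at 8.44 and 7.07 TPM. For *Aspn* it was -0.95 in lung and 0.11 in LN, the latter resting on 0.07 and 0.09 TPM against 0.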

How the results depend on the processing

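Every one of the 470 recomputed member differences kept its sign where the main difference was over 2 on the log2 scale; 440 moved by less than their standard error. With a pseudocount of 0.1 in place of 1, 23 of 30 moved more, 16 of them among the 18 differences from MFP. The counts of partner genes called stayed within 1.5 times of the values given, with these exceptions. With a pseudocount of 0.1, 19 partner genes rather than 10 were called for LN and BM against MFP. With 1 library left out, the count between the lung groups ran from 17 to 27 instead of 27, lowest without the second lung CD44low library, where 58 rather than 64 partner genes passed the filter. The replicate numbers did not pair the samples: in 3 of 21 pairs of groups the same-numbered libraries deviated together with a correlation over 0.1 (range -0.19 to 0.17). With the replicate number as a block, the counts were 33 for lung CD44low and 14 for lung CD44high against MFP, 27 between the lung groups, 10 for LN and BM against MFP and 22 for lung against LN and BM. Over all genes, a pseudocount of 0.1 raised the calls from 911 to 1967 for LN and BM against MFP, from 2065 to 3286 for lung CD44high against MFP, from 1732 to 2666 between the lung groups and from 1946 to 3650 for lung against LN and BM. Median ratio scaling moved the share that rose from 435 of 911 to 537 of 879 for LN and BM against MFP and from 1095 of 1946 to 864 of 1894 for lung against LN and BM. In single cells, 55 of 72 recomputed levels stayed within the Poisson interval; 10 of the 17 others were means of per-cell values, such as 9.38 per 10000 for *Bgn* and 4.45 for *Prelp* in lung CD44low. The study states only a minimum read depth for the bulk samples, so the depth behind each TPM is unknown. Every bulk comparison is also limited by 2 clones a group.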
